A study of Mus musculus with 4 samples.

Results

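The transcription factors described here are the regulators that T cell biology ties to effector function and tissue residency: Tbx21, Eomes, Prdm1, Zfp683, Id2, Runx3, Runx1, Zeb2, Bhlhe40 and Batf. They were listed by name, and every probe that carried one of the 10 names on the arrays, control spots aside, was taken as a member. Of the 10 factors, 9 had a probe, with 17 probes between them, among 27376 gene names and 41174 probes on the array. No probe carried the name Zfp683, the gene of Hobit, which was not analysed here. Of the 17 probes, 16 were bright enough to be tested, at least 1 for each of the 9 factors.

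CD8αβ+ T cells leave the naive state when antigen and cytokine signals switch on factors such as T-bet, the product of Tbx21, which opens cytotoxic and interferon-γ genes. Blimp-1 (Prdm1), Hobit (Zfp683) and Runx3 are known for holding activated CD8+ T cells in tissues such as the gut epithelium, in part by shutting down receptors that lead cells back to the blood. Id2, Zeb2, Bhlhe40 and Batf shape the same choice between effector, resident and memory fates, and Eomes and Runx1 are the closest relatives of T-bet and Runx3 in these cells.

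RNA of CD8αβ+ intraepithelial lymphocytes (IELs) from the small intestine and of CD8αβ+ spleen cells (SPLs) was measured in 2 samples per group, and the comparison asked how the gut cells differ from their splenic counterparts. All mice were untreated wild-type males, 8 to 12 weeks old in the labels and on the C57BL/6 background in the methods, and no genetic change or agent separated the groups. Cells of several mice were pooled for a sample and sorted by the methods' gate for CD45, CD3, CD8α, CD8β and TCRβ, so a value stands for a pool and not for an animal. Each sample lay on its own 1-color Agilent array of 60-base probes, and each of the 2 slides carried both groups: slide 1 held IEL replicate 1 beside SPL replicate 2, and slide 2 held IEL replicate 2 beside SPL replicate 1. Levels are log2 of the background-subtracted intensity minus the 75th percentile of the array, so that 0 is the brightness of a probe at that percentile, and a level can be compared between arrays but not between probes. Differences are IEL minus SPL on the log2 scale, tested with limma across 27937 probes at a Benjamini-Hochberg adjusted p of 0.05. An exact permutation test of 2 against 2 arrays could not go below a two-sided p of 0.33.

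IEL replicate 2 stood apart from the other IEL array. Over 27912 tested probes its levels had a Pearson correlation across probes of 0.992 with SPL replicate 1, on the same slide, but of 0.946 with IEL replicate 1, whereas the SPL arrays correlated at 0.986. The differences of the factors and of the other genes named are therefore also given within each slide, and those of the factors without IEL replicate 2 where that changed a call. The arrays also differed in markers of other cells, whose part in the results below was not tested. The summed linear level of 12 T cell markers lay between 922 and 989 on all 4 arrays, with every marker well above background. Single T cell markers still differed. For 5 both IEL arrays lay above both SPL arrays and for 5 both lay below, beside 24.6% of all genes each way. Cd2, with the largest difference of the 12, read 2.27 and 3.76 in the IELs against 4.14 and 4.15 in the SPLs. The sum over 10 measured epithelial markers was 25.9 and 5.17 in the IELs against 2.37 and 0.742 in the SPLs, and that over 9 Paneth cell markers was 612.5 and 14.1 against 8.87 and 5.34. The 10 epithelial and 9 Paneth cell markers measured were well above background on both IEL arrays and on SPL replicate 1. A marker counted as measured only if well above background on both arrays of at least 1 group. Cdx1, Cdx2 and Pla2g2a had a probe but were left out by that rule, so this detection is partly set by it. The sum over 5 erythroid markers was 1.09 in IEL replicate 1 but 74.3 in IEL replicate 2, near the 98.1 and 115.0 of the SPLs. The sums of 9 B and plasma cell markers (10.8 against 30.6 to 38.2 on the other arrays), 10 myeloid markers (56.5 against 71.5 to 89.1) and 6 NK cell markers (3.85 against 9.49 to 13.6) were likewise lowest in IEL replicate 1. Such sums are weighted to the brightest markers of a list, and single markers differed from them. Lyz2, the brightest myeloid marker in IEL replicate 1 at 5.56, was highest there, as were Itgax, Sdc1, Xbp1 and Klrb1c. The other measured B and plasma cell, myeloid and NK cell markers were lowest there. S100a9 read -4.17 in IEL replicate 1 against 4.87 to 5.29 on the other arrays. In sorted pools of this kind, fewer cells of a type and less RNA per cell cannot be told apart.

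**Figure D1:**
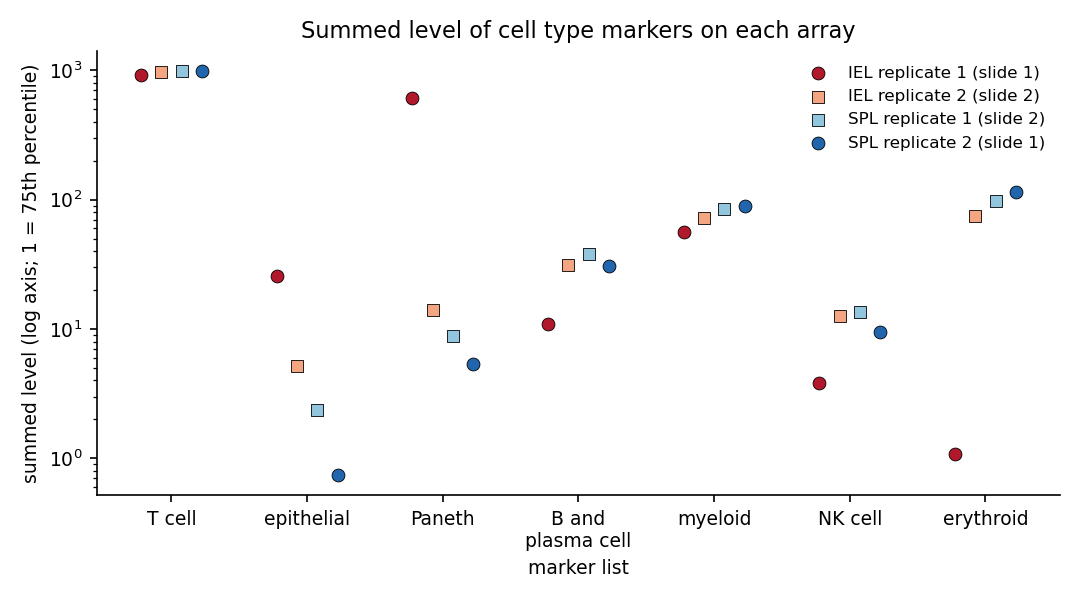
Summed linear level of the measured markers of 7 cell types (log axis, 1 is the 75th percentile of the array), with 1 point per array and the slide given by the symbol's shape. The T cell sums coincide between 922 and 989, whereas the epithelial and Paneth cell sums are highest in IEL replicate 1 and lowest in SPL replicate 2 and the erythroid sum of IEL replicate 2 sits with the SPLs.

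Most of the factors were higher in the IELs, and the largest differences were those of Tbx21, Bhlhe40, Prdm1 and Zeb2. Both IEL arrays lay above both SPL arrays for 6 of the 9 factors, an arrangement that 24.6% of the 18464 genes measured on all arrays showed. Both IEL arrays lay below both SPL arrays for 1 factor, Runx1, as for 24.6% of all genes. The groups overlapped for Eomes and Batf. The median difference of the 9 factors was 0.62, beside -0.0020 for all tested genes. None of the 9 passed the adjusted threshold with all 4 arrays in limma, as did 0% of all genes. In that fit 3 of the 9 had an unadjusted p under 0.05, as did 1603 of the 27937 tested probes. When IEL replicate 2 was left out, which leaves 1 IEL array whose spread is assumed to be that of the SPLs, 4 of the 9 factors were called higher beside 8.22% of all genes. Without that array 0 factors were called lower, beside 11.5% of all genes.

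**Figure D2:**
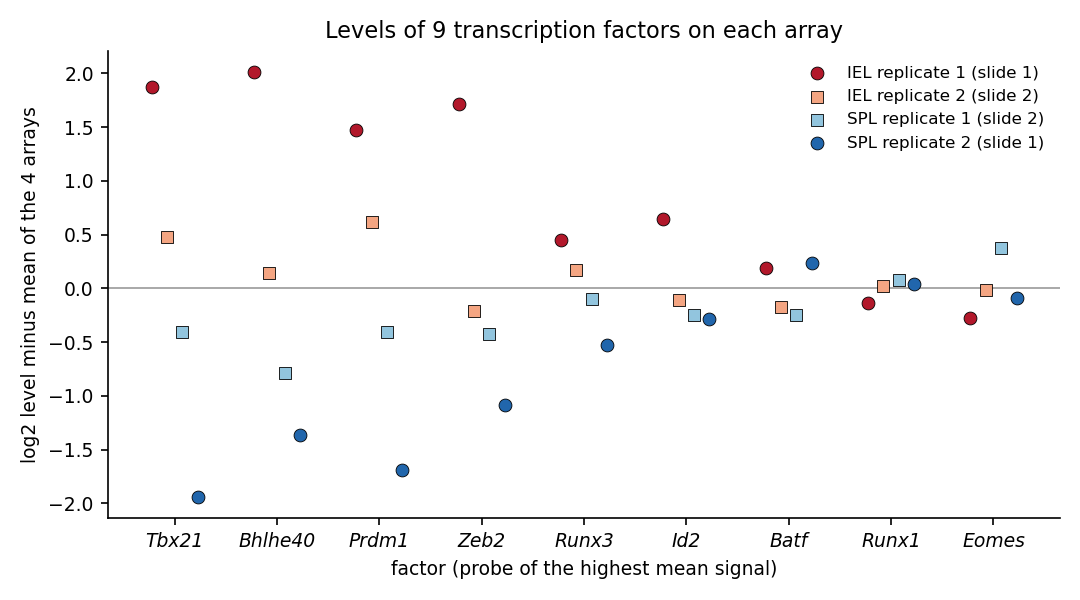
Log2 level of each factor on each array, centred on the factor's mean over the 4 arrays and taken from its probe of the highest mean signal. For Tbx21, Bhlhe40, Prdm1 and Zeb2 the points spread over 2.81 to 3.81 log2 units with IEL replicate 1 on top and SPL replicate 2 at the bottom, whereas those of Batf, Runx1 and Eomes stay close to 0.

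Tbx21 encodes T-bet, the T-box factor that drives interferon-γ and cytotoxic genes in CD8+ T cells. It was read by 1 probe at chr11:96959417-96959476 on the minus strand (mm9, the build of the array's annotation), of which the first 30 of 60 bases are shown to identify the measured transcript.
Tbx21 A_51_P501364: gaggggggaggctatttattgtagagagtg
Its level was 5.40 and 4.01 in IEL replicates 1 and 2, and 3.12 and 1.60 in SPL replicates 1 and 2. Both IEL levels exceeded both SPL levels, and each group spread over more than 1 log2 unit. The difference was 2.35 ± 0.73 (SE, n = 2 per group), or 5.09-fold, with an adjusted p of 0.634 in limma. Within slide 1 it reached 3.81 and within slide 2 it was 0.89. Without IEL replicate 2 the difference of Tbx21 was 3.04, and without IEL replicate 1 it was 1.65.

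Eomes, the T-box relative of T-bet that sustains memory cells responsive to interleukin-15, did not share this pattern. Its probe at chr9:118394286-118394345 on the plus strand gave levels of 0.90 and 1.16 in the IELs and 1.55 and 1.08 in the SPLs. The groups overlapped, with IEL replicate 2 above SPL replicate 2, and the difference was -0.29 ± 0.29 with an adjusted p of 0.702 in limma. It was negative on both slides, at -0.19 and -0.39. The T-box pair thus showed differences of opposite sign, and the gap between them was not tested.

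Prdm1 encodes Blimp-1, a zinc-finger repressor that works in effector and resident T cells and in plasma cells. Its probe mapped to chr10:44157291-44157350 on the minus strand and began with the following 30 bases, printed to identify the transcript.
Prdm1 A_51_P338746: taggttaaccaaagcatgacctgacattga
The level was 0.17 and -0.69 in IEL replicates 1 and 2, and -1.71 and -3.00 in SPL replicates 1 and 2. All 4 arrays read the probe well above background, with 75.8 units in SPL replicate 2, the lowest. The groups did not overlap, and the difference was 2.09 ± 0.57, or 4.26-fold, with an adjusted p of 0.634 in limma. Prdm1 was the only factor at least 2-fold higher on both slides, with 3.17 on slide 1 and 1.02 on slide 2. The difference was 2.52 without IEL replicate 2 and 1.66 without IEL replicate 1. Under normexp background correction the difference was 0.41, and 1.54 when that correction was fitted without the spots far below their local background. That first correction also shifted the median of all probes to -0.38.

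Bhlhe40 encodes a basic helix-loop-helix repressor that binds CACGTG E-boxes and supports cytokine output and mitochondrial fitness in T cells of tissues. Its probe lay at chr6:108616309-108616368 on the plus strand, and its first 30 bases are given for the same reason.
Bhlhe40 A_51_P272553: agcagcggatggagcgtccttgctaaaaag
The level was 4.54 and 2.68 in the IELs and 1.74 and 1.17 in the SPLs. IEL replicate 1 stood 1.87 above IEL replicate 2, which in turn lay above both SPL arrays. The difference was 2.16 ± 0.70, or 4.46-fold, with an adjusted p of 0.634 in limma, and it was 3.38 on slide 1 and 0.93 on slide 2. Without IEL replicate 2 the difference of Bhlhe40 was 3.09, and without IEL replicate 1 it was 1.22.

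Zeb2 encodes a zinc-finger E-box repressor that acts with T-bet in terminally differentiated effector cells and is also expressed by myeloid and mesenchymal cells. It had 5 probes on chromosome 2, all on the minus strand. The probe that represents it ran from chr2:44844068-44844127 and is shown whole because the values of Zeb2 rest on it. Capitals mark the first TAA, TAG or TGA in any of its 3 frames, at base 33, and which frame the transcript uses was not looked up. The probe at chr2:44876512-44876571 is given by its first 30 bases.
Zeb2 A_51_P121206: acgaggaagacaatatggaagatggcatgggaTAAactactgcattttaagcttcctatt
Zeb2 A_52_P587928: tgcagggctataagaacaaatgttcggatg
The first of these probes read 1.10 in IEL replicate 1 but -0.83 in IEL replicate 2, -1.04 in SPL replicate 1 and -1.70 in SPL replicate 2. IEL replicate 1 was far above the other 3 arrays, and IEL replicate 2 exceeded SPL replicate 1 by 0.21. The difference was 1.51 ± 0.73, or 2.85-fold, with an adjusted p of 0.634 in limma. It was 2.81 on slide 1, and 0.54 without IEL replicate 1. Without IEL replicate 2 it was 2.47.

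The other tested Zeb2 probes placed the arrays in the same order. The array's annotation assigns A_52_P587928 and A_51_P106893 to other transcript records than the RefSeq transcript of the remaining Zeb2 probes. A_52_P587928 read -0.66 and -2.37 in the IELs and -2.99 and -4.29 in the SPLs, a difference of 2.13 ± 0.76. For A_52_P596008 the levels were 1.14 and -0.88 against -1.30 and -2.10, a difference of 1.83 ± 0.77. A_51_P106893 was dim, at -3.22 and -4.63 against -5.21 and -7.02, and SPL replicate 2 was not well above background, so its fitted difference of 2.18 is no bound. The fifth probe, A_52_P526372, stayed too close to background on all 4 arrays to be tested. All 4 tested probes thus had both IEL arrays above both SPL arrays, with slide 1 differences of 2.81 to 3.79 and slide 2 differences of 0.21 to 0.63. Normexp background correction, under which the median of all probes was -0.38, gave -0.83 for A_51_P106893, -0.12 for A_52_P587928 and 0.66 for A_51_P121206, so that of these only A_51_P106893 lay below that median.

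Id2, an inhibitor that binds E proteins and keeps them off DNA, is required for effector CD8+ T cells and innate-like lymphocytes. Of its 3 probes on chromosome 12, minus strand, the brightest spanned chr12:25780183-25780530, which is 348 bases for a 60-base probe and so crosses a splice junction. Its full sequence is shown because it reads joined stretches of the transcript, and capitals mark its last 3 bases, a TAA at base 58 in 1 of its 3 frames.
Id2 A_51_P219074: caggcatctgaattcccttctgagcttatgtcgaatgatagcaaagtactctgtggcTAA
The level was 5.18 and 4.43 in the IELs and 4.29 and 4.25 in the SPLs. The IEL levels lay above those of the SPLs, IEL replicate 2 only by 0.14 over the array of its slide. The difference was 0.53 ± 0.34, or 1.45-fold, with an adjusted p of 0.634 in limma, and it was 0.93 on slide 1. It was 0.16 without IEL replicate 1 and 0.91 without IEL replicate 2, with an adjusted p of 0.0609 in limma for the latter. The other Id2 probes gave differences of 0.43 for A_52_P240542 and 0.16 for A_52_P94071, and their groups overlapped. A_52_P94071 was lower in the IEL array of slide 2, at -0.23.

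Runx3, the Runt factor that silences Cd4 and raises Cd103 (Itgae) in CD8+ T cells, had 2 probes on chromosome 4, plus strand, at chr4:134732605-134732664 and chr4:134731959-134732018. The first read 2.96 and 2.68 in the IELs and 2.41 and 1.98 in the SPLs, a difference of 0.62 ± 0.28 with an adjusted p of 0.634 in limma. The second read 0.47 and -0.07 against -0.48 and -0.80, a difference of 0.84 ± 0.31 with an adjusted p of 0.634. On both probes the IEL arrays lay above the SPL arrays, and both slides gave a positive difference (0.97 and 0.27 for the first, 1.27 and 0.41 for the second). The group means of the Runx3 probes differed by 1.54-fold and 1.79-fold, and limma called neither.

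Runx1, the relative of Runx3 that acts earlier in T cell development, was the factor whose probes disagreed. The sequences are set side by side because the probes read different stretches of the gene on chromosome 16, minus strand. A_51_P206585 lay at chr16:92604413-92604472 and is given by its first 30 bases, whereas A_52_P202358 reached from chr16:92614003-92644455, a span of 30453 bases, and so read across a spliced-out stretch.
Runx1 A_51_P206585: tgtgcatcgtgtcactgtaaatgtaatggt
Runx1 A_52_P202358: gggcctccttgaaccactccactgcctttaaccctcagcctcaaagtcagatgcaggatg
The first probe, the brighter on average, read -0.64 and -0.48 in the IELs and -0.43 and -0.46 in the SPLs. Both IEL arrays lay just below the SPL arrays, and the difference was -0.12 ± 0.23 with an adjusted p of 0.843 in limma. The second probe read -0.22 and -0.65 against -0.76 and -1.05, with both IEL arrays above the SPL arrays and a difference of 0.48 ± 0.28 with an adjusted p of 0.634. Averaging the probes gave 0.18, so the sign for Runx1 depends on the stretch that is read. Slides 1 and 2 gave -0.18 and -0.06 for the first probe and 0.84 and 0.11 for the second. The array's annotation assigns the probes to different RefSeq transcripts of the gene. Whether their values report different transcripts was not tested.

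Batf, a basic leucine zipper factor that pairs with Jun proteins and IRF4 in activated T cells, was level between the groups. Its probe on chromosome 12 at chr12:87049872-87049929, plus strand, read 3.69 and 3.33 in the IELs and 3.26 and 3.74 in the SPLs. The 4 levels interleaved, with the highest and the lowest both in SPLs. The difference was 0.01 ± 0.30 with an adjusted p of 0.992 in limma, and it was -0.05 on slide 1 and 0.07 on slide 2. With a value this close to 0 the sign carries no information, since scalings that moved the median of all probes by a few hundredths turned it.

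**Figure D3:**
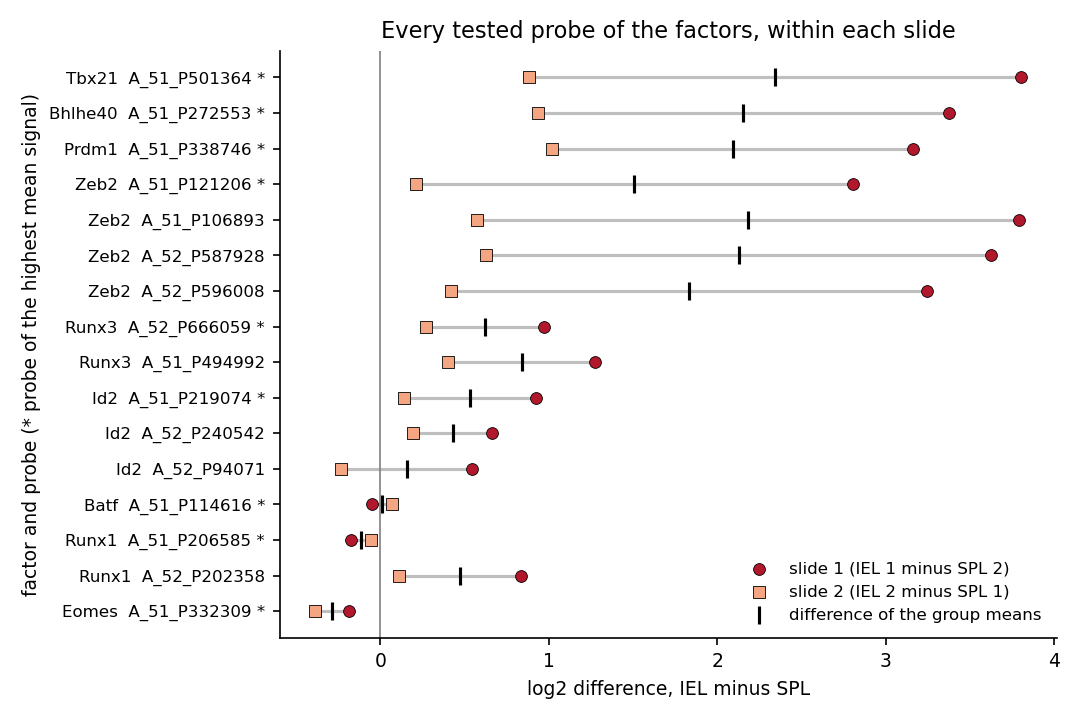
Log2 difference, IEL minus SPL, of each of the 16 tested probes within slide 1 (circles) and slide 2 (squares), with the difference of the group means as a vertical mark. The slide 1 values of Tbx21, Bhlhe40, Prdm1 and all 4 Zeb2 probes lie between 2.81 and 3.81, their slide 2 values between 0.21 and 1.02, and the Runx1 probes fall on opposite sides of 0.

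The slides agreed in sign for most factors but not in size. The difference was positive on both slides for 6 of the 9 factors and negative on both for Eomes and Runx1. On slide 1, 4 of the 9 factors were at least 2-fold higher in the IEL array, beside 11.6% of all genes, and 0 were at least 2-fold lower, beside 14.2%. On slide 2, 1 factor, Prdm1, was at least 2-fold higher, beside 3% of all genes, and 0 were at least 2-fold lower, beside 0.671%. The median absolute difference of the factors was 0.97 on slide 1 and 0.27 on slide 2, beside 0.51 and 0.18 for all tested genes.

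**Figure D4:**
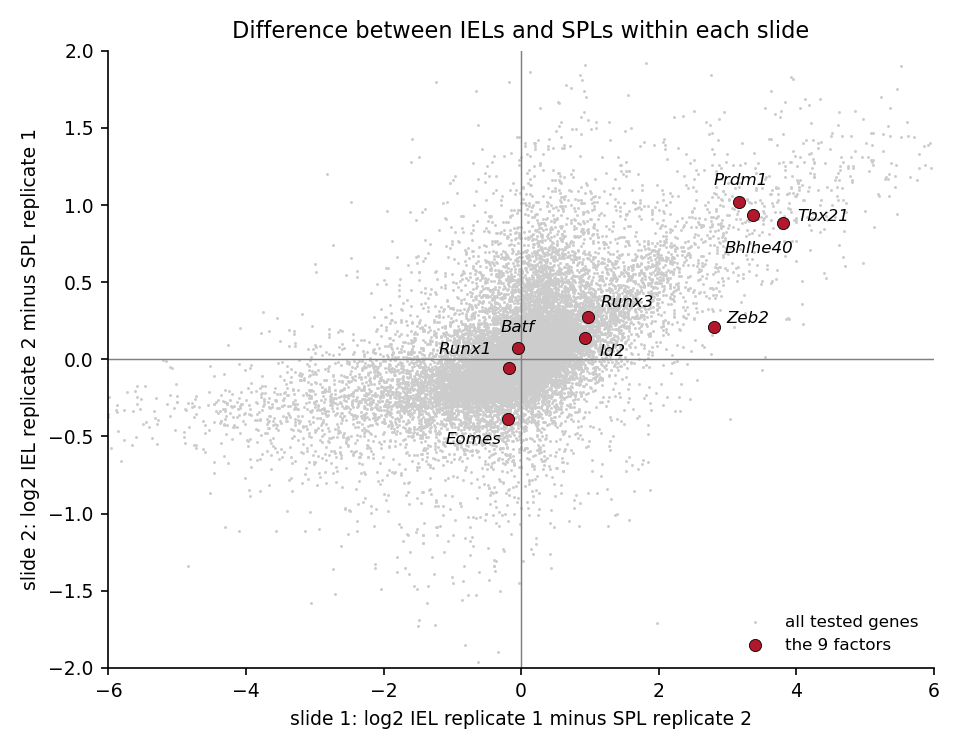
Log2 difference between IELs and SPLs on slide 1 (horizontal axis) and slide 2 (vertical axis) for all tested genes (grey) and the 9 factors (red), with 156 of 18464 genes beyond the axis limits. Tbx21, Bhlhe40 and Prdm1 lie together at 3.17 to 3.81 on slide 1 and 0.89 to 1.02 on slide 2, Zeb2 lies below them at 0.21 on slide 2, and Batf, Runx1 and Eomes lie near the origin.

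The profiles over the 4 arrays were compared by the root mean square difference of mean-centred log2 levels, in which 0 is an identical profile. Tbx21 and Prdm1 were each other's nearest factor, at 0.24, and Zeb2 and Bhlhe40 were at 0.33. Id2 was nearest to Runx3, at 0.22, Eomes to Runx1, at 0.18, and Batf to Runx1, at 0.27. Among the genes of the lists used here, Ccl4 was nearest to Tbx21 (0.12), Il12rb1 to Prdm1 (0.16), Itgae to Bhlhe40 (0.22) and Ccr9 to Runx3 (0.097). The listed gene nearest to Zeb2 was the epithelial marker Epcam, at 0.14. These are descriptions over 4 arrays, and the gene nearest to each factor over the whole array belonged to none of the lists. Many tested genes lay nearer to a factor than its nearest factor did. They numbered 67 for Prdm1, 90 for Tbx21, 194 for Bhlhe40 and 260 for Zeb2. For Eomes they numbered 1400, for Runx3 1562, for Id2 2339, for Runx1 4591 and for Batf 6029. The factors of a pair are thus not each other's closest genes among the 18478 gene names tested.

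Genes that the factors are known to raise were mostly higher in the IELs. Of 17 such genes, 12 had both IEL arrays above both SPL arrays and 0 the reverse, with a median difference of 1.19, beside 24.6% of all genes in each arrangement. None passed the adjusted threshold. Leaving out IEL replicate 2, limma called 4 higher, beside 8.22% of all genes, and 2 lower, beside 11.5%. Gzmb, the granzyme B gene, read 8.56 and 6.79 in the IELs against 5.51 and 0.10 in the SPLs, a difference of 4.87 ± 1.94 (8.45 on slide 1, 1.28 on slide 2). Gzma, its granzyme A neighbour in function, read 8.46 and 6.99 against 5.66 and 1.32, a difference of 4.24 ± 1.57 (7.13 and 1.33). Both granzymes set SPL replicate 2 far below the other 3 arrays. Cd244, a receptor of cytotoxic cells, differed by 3.66 ± 1.15 (5.92 on slide 1 and 1.39 on slide 2), and Fasl, the death ligand gene, by 2.65 ± 0.71 (3.98 and 1.32). S1pr5 and Cx3cr1, egress and effector receptor genes that T-bet and Zeb2 are known to raise in circulating cells, were named after their values were seen. Both were not well above background on IEL replicate 1, and on the other arrays S1pr5 read -1.08 in IEL replicate 2 against -0.83 and -1.66 in the SPLs, and Cx3cr1 -1.95 against -1.50 and -2.62. Their groups overlapped, and the 2 calls of lower genes without IEL replicate 2 were theirs, so those calls set an undetected value on 1 array against the SPLs.

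Genes that the factors are known to repress were mostly lower in the IELs. Of 13 such genes, 8 had both IEL arrays below both SPL arrays and 2 above, with a median difference of -1.16, beside 24.6% of all genes in each arrangement. The 2 above were Bcl6 and Zbtb7b, named after their values were seen. Bcl6 differed by 1.49 ± 0.51 (2.25 on slide 1, 0.73 on slide 2) and Zbtb7b by 0.82 ± 0.44 (1.61 and 0.03). On the 3 arrays left without IEL replicate 2, limma called 7 lower, beside 11.5% of all genes, and 1 higher, beside 8.22%. S1pr1, the receptor for exit from tissue, read -0.45 and 4.49 in the IELs against 4.75 and 5.08 in the SPLs. The low value was that of IEL replicate 1 alone, and the difference was -5.53 on slide 1 and -0.26 on slide 2. Lef1, a factor of naive cells, differed by -2.38 ± 1.38, with -4.47 on slide 1 and -0.29 on slide 2. Ccr7, the lymph node chemokine receptor, differed by -2.31 ± 1.15, with -4.18 on slide 1 and -0.44 on slide 2. IEL replicate 1 alone was far below the other arrays for Lef1 and Ccr7 too. Myb, a factor of immature and self-renewing lymphocytes, read -1.40 and 1.65 against 1.94 and 2.55 (-3.95 on slide 1 and -0.30 on slide 2), again with IEL replicate 1 alone far below the other arrays. Erythroid, B cell and myeloid marker sums were also low on IEL replicate 1 alone, and their part in these values was not tested.

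**Figure D5:**
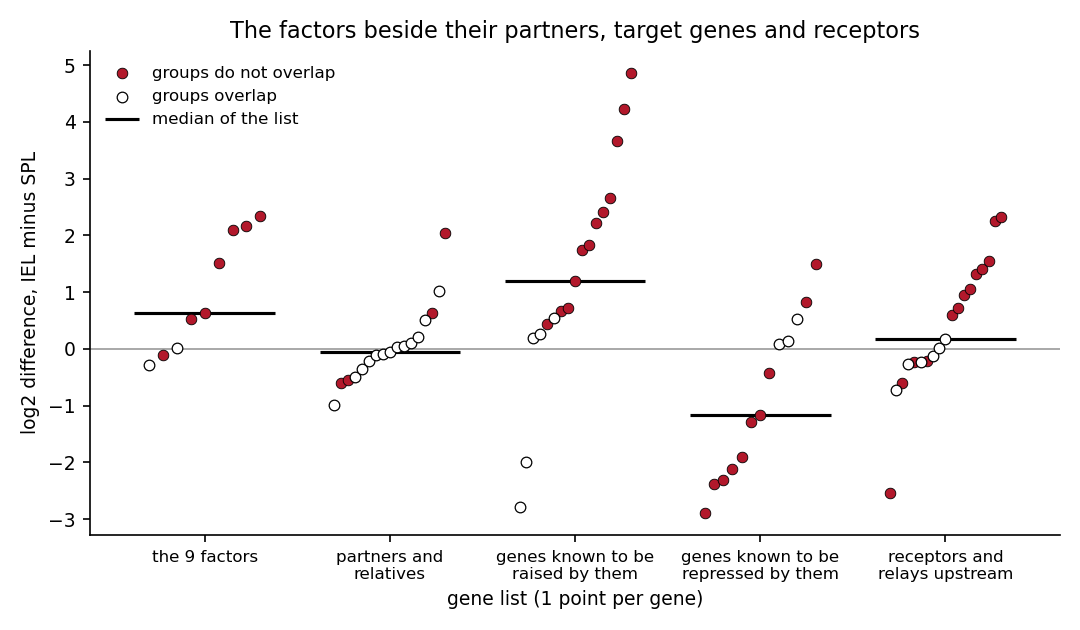
Log2 difference, IEL minus SPL, of each measured gene in 5 lists, with filled points where both arrays of 1 group lie above both of the other and a bar at the median. The medians are 0.62 for the 9 factors, -0.05 for partners and relatives, 1.19 for genes known to be raised by the factors, -1.16 for genes known to be repressed by them, and 0.17 for receptors and relays upstream.

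Partners and relatives of the factors showed no common shift. Of 17 genes, 2 had both IEL arrays above and 2 both below, beside 24.6% of all genes each way, and the median difference was -0.05. In limma 3 were called higher and 2 lower without IEL replicate 2, beside 8.22% and 11.5% of all genes. Runx2, the third Runt factor, read 1.94 and 0.77 in the IELs against -0.21 and -1.16 in the SPLs, a difference of 2.04 ± 0.56 (3.101 on slide 1, 0.97 on slide 2) that exceeded those of Runx3 and Runx1 in value. Tcf4, an E protein held by Id2, differed by 0.63 ± 0.37 (0.96 and 0.29). Id3, the relative of Id2 that marks naive and memory cells, read 0.57 and 1.43 against 1.53 and 1.58, a difference of -0.55 ± 0.37 (-1.01 and -0.09), opposite in sign to Id2. Zfpm1, a cofactor of GATA factors, differed by -0.60 ± 0.38 (-1.12 and -0.07).

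Among 19 receptors and relays upstream of the factors, 9 had both IEL arrays above and 4 both below, beside 24.6% of all genes each way, with a median of 0.17. When IEL replicate 2 was left out, limma called 8 higher, beside 8.22% of all genes, and 1 lower, beside 11.5%. Il12rb1 and Il12rb2, the chains of the interleukin-12 receptor that induces T-bet, were higher in both IEL arrays, by 2.26 ± 0.64 (3.51 on slide 1, 1.01 on slide 2) and 2.32 ± 0.85 (4.004 and 0.64). With normexp the value of Il12rb2 was -0.42, close to the -0.38 of the median probe. Il21r, the interleukin-21 receptor gene, differed by 1.54 ± 0.69 (2.36 and 0.73). Il18r1, a chain of the interleukin-18 receptor, went the other way, at -2.05 and 2.36 in the IELs against 2.72 and 2.68 in the SPLs, a difference of -4.72 on slide 1 and -0.36 on slide 2. None of the 19 passed the adjusted threshold with all arrays.

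The 250 bases before the transcription start, as RefSeq gives them for GRCm38.p6, were held for 8 of the 10 factors in 13 windows, alternative starts included. The letters CACCTG, the E-box that ZEB proteins bind, occurred on either strand in 4 of these 13 windows (1 each of Tbx21, Prdm1, Runx3 and Runx1), and in 17.2% of all 32851 windows. The Runx letters TGTGGT occurred in windows of Runx3 and Batf (14% of all windows). The AP-1-like letters TGANTCA, in which N is any base, occurred in windows of Prdm1, with A at N, and Zeb2 (6.75%). CACGTG occurred in a Runx1 window (6.02%) and the T-box letters TCACAC in 0 (12.3%). Tbx21 and Prdm1 are shown, as the nearest pair of profiles among the factors with the largest differences, at chr11:97115332-97115581 and chr10:44458749-44458998, both on the minus strand, with the CACCTG match, read as CAGGTG, in capitals.
Tbx21 promoter: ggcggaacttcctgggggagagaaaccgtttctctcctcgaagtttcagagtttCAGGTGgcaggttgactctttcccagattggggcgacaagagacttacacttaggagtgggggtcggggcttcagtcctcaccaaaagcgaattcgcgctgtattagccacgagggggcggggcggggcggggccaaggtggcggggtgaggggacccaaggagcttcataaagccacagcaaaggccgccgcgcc
Prdm1 promoter: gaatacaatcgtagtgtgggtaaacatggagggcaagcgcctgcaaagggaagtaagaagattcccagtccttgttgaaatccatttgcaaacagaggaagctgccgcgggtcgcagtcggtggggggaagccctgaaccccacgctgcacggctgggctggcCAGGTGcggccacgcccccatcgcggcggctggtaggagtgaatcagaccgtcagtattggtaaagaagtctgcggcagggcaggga
The match began 196 bases before the start in Tbx21 and 87 bases before it in Prdm1. A match is a description of letters, and binding was not measured.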

How the data were processed

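RNA of 2 CD8αβ+ IEL and 2 CD8αβ+ SPL pools was labelled with Cy3 and hybridized to Agilent whole mouse genome arrays. The deposited scanner output (Feature Extraction 10.7.3.1 per the file headers) holds 1 background-subtracted intensity for each of 45018 spots, not normalized between arrays. Log2 values that the authors made from the same arrays, with array medians of 5.57 to 5.59 and a normalization not given in the sources used here, served as an alternative. Probe positions are those of the array's annotation (mm9), without the exon or untranslated region a probe falls in.

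The log2 intensity was scaled by subtracting the 75th percentile of 43379 non-control spots, which lay between 312 and 605 units. Marked outlier spots (98 to 179 per array) were left out and repeat spots averaged. A probe was tested when well above background, by the scanner software's call, on both arrays of at least 1 group (63.6% to 69.6% of probes per array were). No spot was saturated. The number of arrays limits the precision. The comparison of the groups used R 4.3.3 with limma 3.58.1 (files were read with the data.table package, version 1.17.8), without a block, with Benjamini-Hochberg adjustment over all tested probes. The model was tested on simulated data. A gene was represented by its tested probe of the highest mean signal. Within-slide values are differences of the arrays of a slide. Replicates are separate pools by label, and p-values measure only the spread between them.

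The factors and gene lists were chosen with earlier results of these data known. All probes of the factors are named, and of each other list up to 4 genes with the largest difference whose groups do not overlap. Genes named after their values were seen are marked so in the text and come on top of these. A listed gene that the factors are known to repress is not reported here and was left out of its list. The alternatives were quantile and median scaling, scaling over detected probes, normexp background correction (offset 50) with and without spots over 20 units below background, the authors' values, other filters, kept outlier spots, an intensity trend, the methods' t-test, replicate and slide blocks, each array left out, and the mean of a gene's probes. Sequences come from the scanner files and from RefSeq (GRCm38.p6). The other experiments of the study were not analysed here.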

Additional observations from a re-analysis of the deposited data

How the results depend on the processing

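The main limits are 2 arrays per group and the closeness of IEL replicate 2 and SPL replicate 1. SPL replicate 1 correlated at 0.992 with IEL replicate 2 and at 0.986 with SPL replicate 2, so either group mean may be affected. The number of probes called with all arrays was 0, with 1603 at an unadjusted p under 0.05 in limma, and it ranged from 0 to 5455 when an array was left out, the highest without IEL replicate 2. The methods' t-test called 819 probes before adjustment and 0 after it. The number of factors called ranged from 0 to 4 when an array was left out, and 0 factors passed the methods' t-test before adjustment. The count of factors with both IEL arrays above both SPL arrays was 6. It fell to 4 with normexp background correction and to 5 with normexp fitted without spots below background. With averaged probes it was 7, and with an array left out it was 6 to 7. The count of factors with both IEL arrays below both SPL arrays was 1. It became 2 with median scaling and with normexp fitted without spots below background. It was 0 with scaling over probes detected on all arrays and with averaged probes, and 1 to 2 with an array left out. The sign of Batf turned with quantile normalization (-0.050), median scaling (-0.046), scaling over detected probes (-0.00063), the second normexp fit (-0.090), the authors' values (-0.060) and within slide 1 (-0.051), and ranged from -0.23 to 0.25 with an array left out. Eomes turned to 0.018 with the first normexp fit, where the median of all probes was -0.38, and Runx1 to 0.18 with the mean of its probes, which takes in its second probe at 0.48. The turns of Batf under the first 3 settings and with the authors' values came with shifts of the median of all probes to -0.046, -0.056, -0.012 and -0.050. The causes of the others were not tested. The signs of Tbx21, Prdm1, Bhlhe40, Zeb2, Id2 and Runx3 by their brightest probes stayed positive under every alternative run, and the median difference of the 9 factors stayed between 0.21 and 0.97. Whether replicate numbers pair the arrays was not settled. An IEL and an SPL array with the same number departed from their groups' means with a correlation of -0.025 across probes. For arrays of the same slide it was 0.025, which with 2 arrays per group is the same value with its sign turned. For Tbx21, Bhlhe40, Prdm1 and Zeb2 replicate 1 exceeded replicate 2 in both groups. Their unequal slide values therefore depend on which arrays are set side by side. With the replicate block 0 factors were called at a median of 0.62.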
